A study of Drosophila melanogaster with 16 samples.

Results

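ROW and HP1c were compared by the places at which each was called bound in fly heads. The comparison took every peak in the list of each protein, 5302 for ROW and 4252 for HP1c, or 9554 of the 23128 peaks in the 5 lists of the study. Each list was divided by 1 rule: a peak was shared when it overlapped a peak of the other list by 1 bp or more. This gave ROW peaks with HP1c, ROW peaks without HP1c and HP1c peaks without ROW, and each set was read again with and without WOC at the site. Chromatin came from heads of Drosophila melanogaster with the genotype Actin-gal4/+ (W1118) control, which every library shares, so the flies carried a Gal4 driver and no mutation of the factors is named. ROW, HP1c, WOC and H3K4me3 had 3 libraries each and HP1b and igG had 2, and each of the 5 antibodies other than igG has 1 list in which its libraries were combined. The labels name no age or sex. A whole head mixes neurons, glia, photoreceptors and other cells, so a shared peak does not show that both proteins were bound in the same cell.

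HP1c belongs to the heterochromatin protein 1 family, whose chromodomain binds methylated lysine 9 of histone H3. Unlike the founding member of the family it is known mainly from euchromatin, the gene-rich part of the genome. ROW and WOC are related zinc-finger proteins that were purified with HP1c as parts of 1 complex. HP1b is another family member, and H3K4me3 marks the nucleosomes beside active gene starts.

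With 1 combined list per antibody there is no spread between libraries and no test between groups. Intervals are 95% Wilson intervals for shares and exact binomial intervals for medians. They cover counting over peaks only. Sequencing depth is unknown, so a missing peak means that none was called. Coordinates are dm3. Genes at the sites were not analysed here.

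ROW and HP1c shared part of their sites, and the share was larger from the HP1c side. Of ROW peaks 45.5% (2413 of 5302, interval 44.2 to 46.9) overlapped HP1c, and of HP1c peaks 57.5% (2445 of 4252, interval 56.01 to 58.98) overlapped ROW. This left 2889 ROW peaks without HP1c and 1807 HP1c peaks without ROW. The overlaps formed 2468 pairs, since 42 ROW peaks met 2 HP1c peaks, 5 met 3 and 1 met 4, while 23 HP1c peaks met 2 ROW peaks. Chromosome 4 held 18 of those 42 ROW peaks and 4 of the 5, against 160 of the 2365 ROW peaks that met 1 HP1c peak. ROW peaks that met 2 were wide, with a median of 2082.5 bp against 510 bp for those that met 1, and a wide peak can meet more partners.

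WOC was more frequent at shared than at unshared sites, for both proteins. Over the whole lists WOC overlapped 74.4% of ROW peaks and 62.2% of HP1c peaks. It lay at 88.2% of ROW peaks with HP1c (2128 of 2413, interval 86.8 to 89.4) and at 63.0% of ROW peaks without HP1c (1819 of 2889, interval 61.2 to 64.7). On the HP1c side the gap was wider, with WOC at 88.3% of HP1c peaks with ROW (2158 of 2445, interval 86.9 to 89.5) and at 27.0% of HP1c peaks without ROW (487 of 1807, interval 25.0 to 29.0). Read the other way, HP1c was present at 53.9% of ROW peaks with WOC (interval 52.4 to 55.5) and at 21.0% of those without (18.9 to 23.3). ROW was present at 81.6% of HP1c peaks with WOC (80.1 to 83.0) and at 17.9% of those without (16.1 to 19.8). None of these pairs of intervals overlap. A wide peak meets others more easily, so both lists were also cut to peaks at least as wide as their own median. A peak then counted as shared only when its partner passed the cut too. WOC lay at 97.5% of wide ROW peaks with a wide HP1c partner and at 92.7% of the other wide ROW peaks. For wide HP1c peaks the shares were 97.5% with a wide ROW partner and 60.5% for the others. The others include peaks that overlapped only a narrower partner, so wide peaks with no partner at all were not separated.

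For HP1c the difference with WOC was present at every width. HP1c peaks were divided at their quartiles into 4 classes of width. In the narrowest class (235 to 293 bp) 78.9% of HP1c peaks with WOC overlapped ROW, against 11.7% of those without WOC. In the widest class (from 511 bp) the shares were 88.3% and 34.6%. ROW peaks with WOC did not follow their width in 1 direction. HP1c was present at 58.6% of the narrowest (236 to 331 bp), 45.5% and 42.7% of the middle classes, and 68.3% of the widest (from 635 bp). The intervals of the outer classes (54.5 to 62.6 and 65.7 to 70.7) lay above those of the middle ones (42.2 to 48.8 and 39.97 to 45.5). For ROW peaks without WOC the share with HP1c stayed between 20.0% and 26.2% over the 4 classes.

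The share of ROW peaks with HP1c varied widely between chromosomes. On the autosomal arms 2L, 2R, 3L and 3R, 44.0% of ROW peaks overlapped HP1c (1768 of 4022, interval 42.4 to 45.5). On X the share was 24.2% (172 of 711, interval 21.2 to 27.5). Chromosome 4, a small chromosome rich in repressed chromatin, had HP1c at 85.1% of its ROW peaks (183 of 215, interval 79.7 to 89.3). The 6 Het contigs, which hold pericentromeric and Y sequence, had it at 81.9% (289 of 353, interval 77.5 to 85.5). With WOC at the site the same order held, at 52.2%, 31.2%, 91.4% and 87.5%. Without WOC the shares were 20.6% on the autosomal arms, 7.25% on X (15 of 207, interval 4.44 to 11.6), 58.5% on chromosome 4 (24 of 41) and 51.8% on the Het contigs (29 of 56).

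HP1c peaks met ROW on X about as often as elsewhere. ROW lay at 62.2% of HP1c peaks on X (171 of 275, interval 56.3 to 67.7) and at 57.6% on the autosomal arms (interval 55.8 to 59.3). X held fewer peaks of both proteins than any autosomal arm, and the gap was wider for HP1c. It had 275 HP1c peaks, against 649 to 874 on each autosomal arm, and 711 ROW peaks, against 901 to 1087. X held 539 of the 2889 ROW peaks without HP1c (18.7%, interval 17.3 to 20.1). Of the 2413 ROW peaks with HP1c it held 172 (7.13%, interval 6.17 to 8.22). Het contigs went the other way: ROW was present at 47.9% of their HP1c peaks (292 of 610, interval 43.9 to 51.8). They held 17.6% of HP1c peaks without ROW, 11.9% of HP1c peaks with ROW and 2.22% of ROW peaks without HP1c. Among Het HP1c peaks that lacked WOC, 11.7% overlapped ROW (29 of 247).

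**Figure D1:**
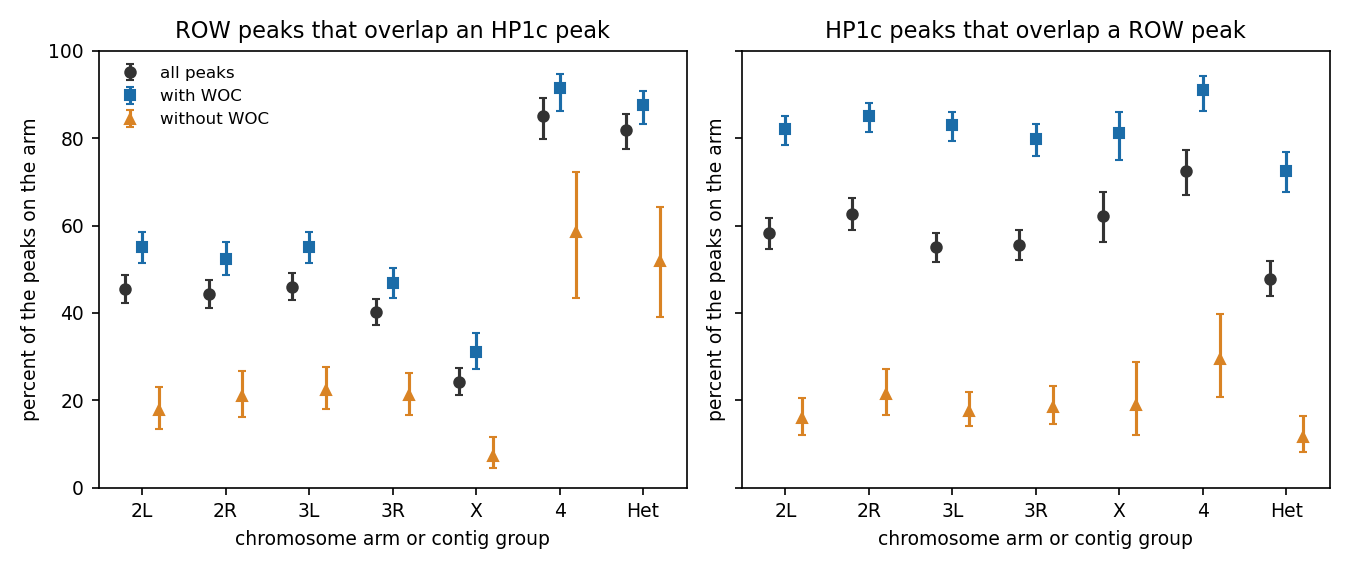
Percent of ROW peaks that overlap an HP1c peak (left) and of HP1c peaks that overlap a ROW peak (right), on each chromosome arm and on the Het contigs together, for all peaks, those with WOC and those without. Points are shares with 95% Wilson intervals. ROW peaks range from 24.2% on X to 85.1% on chromosome 4, while HP1c peaks stay between 47.9% and 72.5%.

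Along the large arms, shared sites stood nearer the centromere than ROW peaks without HP1c. The proximal 2 Mb of an arm was counted from its outermost called peak. It held 16.2% of ROW peaks with HP1c on the main arms (315 of 1940, interval 14.7 to 17.9) and 6.95% of ROW peaks without HP1c (194 of 2793, interval 6.06 to 7.95). HP1c peaks without ROW had 15.2% there (214 of 1411, interval 13.4 to 17.1), inside the interval of the shared sites. Arms differed. Within the proximal 2 Mb, HP1c was present at 69.4% of ROW peaks on 2L, 71.1% on 2R and 77.0% on 3L, against 41.3%, 39.97% and 43.2% over the rest of those arms. On 3R the shares were 44.2% (46 of 104) and 39.8%, and on X 20.9% (9 of 43) and 24.4%, with overlapping intervals on both.

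ROW width differed more with WOC than with HP1c. ROW peaks with HP1c had a median width of 518 bp (interval 503 to 535) and those without 411 bp (402 to 419). Among ROW peaks with WOC the medians were 564 bp with HP1c (546 to 578) and 500 bp without (490 to 508). Among ROW peaks lacking WOC they were 325 bp (303 to 334) and 315 bp (309 to 321), with overlapping intervals. Among ROW peaks with WOC the difference with HP1c lay at H3K4me3: with the mark, ROW medians were 720 bp with HP1c (706 to 739) and 531.5 bp without (523 to 546). With WOC and no mark they were 434 bp (421 to 451) and 420 bp (407 to 435). With the mark and no WOC they were 360 bp (329 to 391) and 348 bp (342 to 355). Over all ROW peaks without the mark, whatever their WOC, they were 407 bp (394 to 416) and 343 bp (333 to 354). The mark was called by overlap here, which a wide peak meets more easily. HP1c peaks with ROW had a median of 424 bp (414 to 433), and HP1c peaks without ROW 323 bp (317 to 328). For HP1c the partner and WOC both went with width, from 435.5 bp with ROW and WOC, through 385 bp with WOC and 356 bp with ROW, to 306 bp with neither. Width is part of what makes peaks overlap, so these medians describe the sets and are no separate evidence of binding strength.

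**Figure D2:**
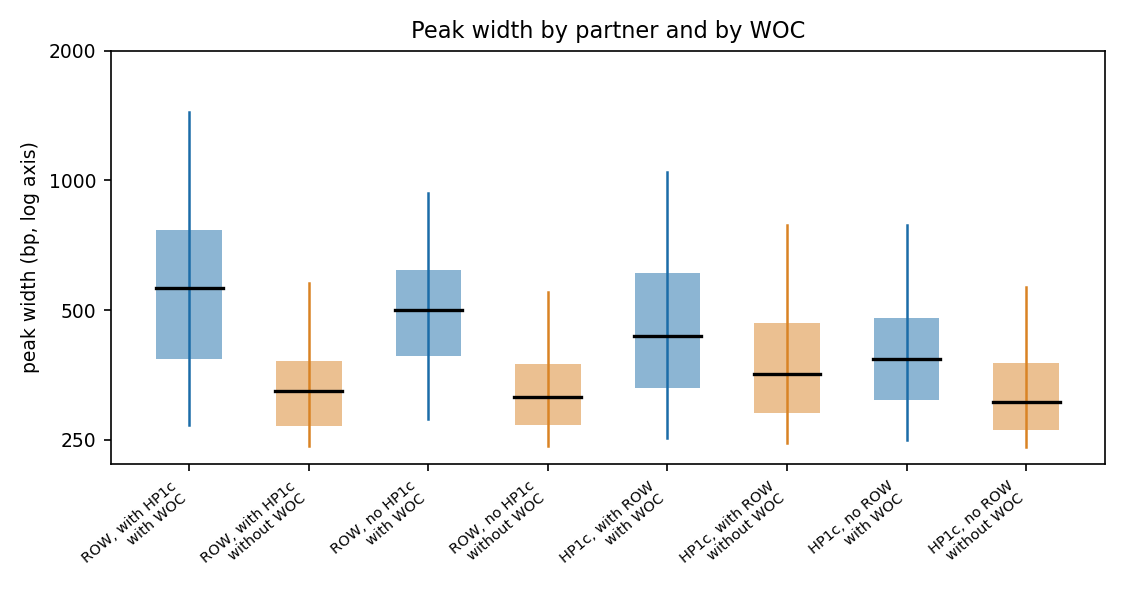
Width of ROW and HP1c peaks by overlap with the other protein and with WOC, on a log axis. Boxes span the 25th to the 75th percentile, lines the 5th to the 95th, and the bar is the median. ROW peaks lacking WOC have medians of 325 and 315 bp whether or not HP1c is present, and those with WOC 564 and 500 bp.

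In overlapping pairs HP1c centres mostly lay close to ROW centres. The median signed offset, HP1c centre minus ROW centre along the chromosome, was 0.5 bp (interval -2.5 to 3.5), and HP1c lay to the right in 50.1% of pairs. The sign follows chromosome coordinates and not the direction of genes, so it cannot show whether HP1c had a preferred side relative to genes. Without regard to side the median offset was 55 bp (52 to 58). Centres stood within 100 bp of each other in 70.1% of pairs and within 200 bp in 86.7%. The overlap covered at least 0.5 of the shorter peak in 98.5%. Since nearly every pair overlaps this far, the 1 bp rule admitted few glancing contacts.

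**Figure D3:**
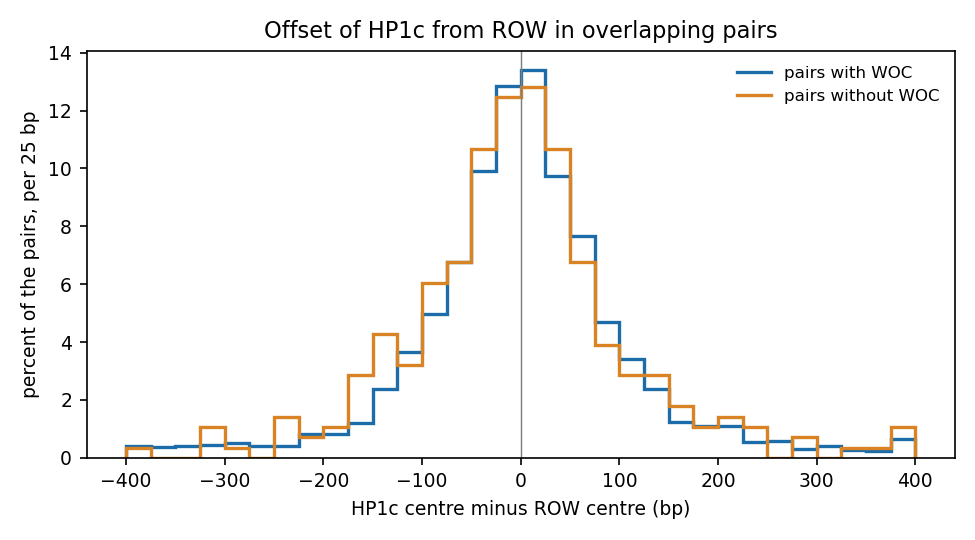
Distribution of the HP1c centre minus the ROW centre in overlapping pairs, in bins of 25 bp from -400 to 400 bp, as percent of the 2187 pairs with WOC and the 281 pairs without. Both distributions peak at 0, and the median absolute offsets are 55 and 54 bp.

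Pairs with and without WOC had like centre offsets and unlike edges. WOC overlapped at least 1 of the peaks in 2187 pairs, in 2175 of them both, and neither in 281. The median absolute offset was 55 bp with WOC (52 to 58.5) and 54 bp without (47 to 66.5). When WOC was required to have its centre within 200 bp of the ROW centre, the value without WOC was 99.5 bp (452 pairs), because pairs with a displaced WOC peak then count as lacking it. HP1c lay wholly inside the ROW peak in 47.9% of pairs with WOC (45.8 to 49.97) and in 11.4% of pairs without (8.18 to 15.6). ROW was the wider peak in 63.5% and 35.2%. In pairs without WOC the median widths were 326 bp for ROW and 357 bp for HP1c, and in pairs with WOC 571 and 438 bp. A narrow ROW peak seldom contains another. Over all pairs with a ROW peak of 300 to below 400 bp, HP1c was nested in 18.0% with H3K4me3 and 9.20% without it. Whether nesting differs with WOC at like ROW width was not tested. Where all 3 proteins formed 1 site (2184 combinations), ROW and WOC centres were 32.8 bp apart in the median (31 to 35.5), WOC and HP1c 46.3 bp (42.5 to 49.5) and ROW and HP1c 55 bp (52 to 58).

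Chromosome 4 had the loosest pairs. Its 212 pairs had a median absolute offset of 111 bp (75.5 to 142.5), against 51 to 55 bp on the 5 large arms and 52 bp on the Het contigs. These pairs include 18 ROW peaks that met 2 HP1c peaks, 4 that met 3 and 1 that met 4. Such matches raise the offset by construction, and one-to-one pairs were not examined by chromosome. Its ROW peaks in pairs were also wide, with a median of 674.5 bp against 498.5 to 596 bp on those arms. The widest ROW peak in a pair, outside the mitochondrial genome, ran from 1217066 to 1222679 on chromosome 4 (5614 bp, with WOC, HP1b and H3K4me3). It covered HP1c peaks of 615 bp at 1217110 to 1217724 and of 3901 bp at 1218711 to 1222611. Another chromosome 4 ROW peak, at 149550 to 154413 (4864 bp), was the one that met 4 HP1c peaks, of which 1 ran from 149870 to 151015. The mitochondrial genome gave 1 peak in each list, 19451 bp for ROW and 19469 bp for HP1c, and this pair is counted among the shared sites.

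H3K4me3 divided the 3 sets. Over the whole lists it overlapped 46.5% of ROW peaks and 16.4% of HP1c peaks. The mark lay at 53.3% of ROW peaks without HP1c (1541 of 2889, interval 51.5 to 55.2), 38.3% of ROW peaks with HP1c (925 of 2413, interval 36.4 to 40.3) and 3.49% of HP1c peaks without ROW (63 of 1807, interval 2.73 to 4.44). Counted on the narrower HP1c peaks, the shared set had the mark at 26.0% (635 of 2445, interval 24.3 to 27.7). That is the share to set beside the 3.49%. Among ROW peaks with WOC the shares were 64.3% without HP1c and 41.7% with it, and among those lacking WOC 34.7% and 13.0%. HP1c peaks without ROW had 3.08% with WOC (1.88 to 5.02) and 3.64% without (2.75 to 4.79). The last set was low under other definitions too, at 7.58% when shared peaks needed centres within 200 bp and 6.86% when a summit within 1 kb replaced overlap. Measured from its centre, a peak had the closest H3K4me3 summit at a median of 403 bp for ROW peaks with WOC and without HP1c (391.5 to 417). For ROW peaks with WOC and HP1c it was 1462.5 bp (1121.5 to 1765.5). Among HP1c peaks with WOC the medians were 1350 bp with ROW (1068.5 to 1637.5) and 16437.5 bp without (14267.5 to 21363.5). For all HP1c peaks without ROW, whatever their WOC, it was 14804 bp (13415.5 to 16091). Where a ROW peak did meet the mark, the highest of the authors' fold enrichments among the H3K4me3 peaks it met was taken. Its median was 4.46 with HP1c (4.36 to 4.59) and 4.23 without (4.17 to 4.28). More than 1 H3K4me3 peak was met by 22.8% of these ROW peaks with HP1c and 14.6% of those without. A highest value favours the former, and the difference was not tested apart from this.

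Seen from the mark, HP1c with WOC nearly always lay with ROW at H3K4me3. Of the 623 HP1c peaks with both WOC and H3K4me3, 97.6% overlapped ROW (608, interval 96.1 to 98.5). The share was 76.7% for HP1c peaks with WOC away from the mark (74.8 to 78.4). HP1c peaks with the mark and no WOC overlapped ROW in 36.0% (27 of 75). For ROW the order was reversed: HP1c was present at 43.1% of ROW peaks with WOC and the mark (41.0 to 45.3) and at 65.6% of those with WOC and no mark (63.5 to 67.8).

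The shape of shared sites differed with the mark nearby, over all pairs and over those with WOC, and in part over the fewer pairs without WOC. To keep peak width out of the choice, a pair was placed near H3K4me3 when a summit lay within 1 kb of the ROW centre. In the 1062 pairs near a summit the median width was 701 bp for ROW (682 to 718) and 390 bp for HP1c (379 to 399), and HP1c lay wholly inside ROW in 73.7% (71.0 to 76.3). Away from summits, in 1406 pairs, ROW was narrower, at 405.5 bp (392 to 415), and HP1c wider, at 458 bp (443 to 472). HP1c was nested there in 21.1% (19.0 to 23.3), and ROW was the nested peak in 35.3% (32.8 to 37.8). Wide ROW peaks contain others more easily, so the pairs were also compared at like ROW width. For ROW peaks from 500 to below 700 bp HP1c was nested in 81.3% of pairs near a summit (76.7 to 85.2) and 32.4% of the others (26.9 to 38.5), with median HP1c widths of 335 and 558 bp. For ROW peaks of 1000 bp or more the shares were 87.7% and 68.8%, and under 300 bp they were 3.13% and 2.61%. ROW widths were not alike in the widest class, with medians of 1300 bp near a summit and 1716 bp elsewhere. Among pairs with WOC alone, HP1c was nested in 76.5% near a summit (73.8 to 79.0) and 23.1% elsewhere (20.8 to 25.6). In pairs without WOC the intervals for nesting overlapped. HP1c was nested in 14.6% near a summit (7 of 48, interval 7.25 to 27.2) and 10.7% elsewhere (25 of 233, interval 7.37 to 15.4). ROW was still wider near a summit in those pairs, at 359 bp (332 to 381) against 310 bp (298 to 328). It was the wider peak of the pair in 52.1% (38.3 to 65.5) and 31.8% (26.1 to 38.0). HP1c medians were 323.5 bp (283 to 376) and 365 bp (345 to 397), with overlapping intervals. HP1b moved with these shapes as well: HP1c was 512 bp wide in pairs with HP1b and 348 bp in pairs without, and nested in 35.6% and 54.2%. The part of HP1b in the difference near H3K4me3 was not tested.

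**Figure D4:**
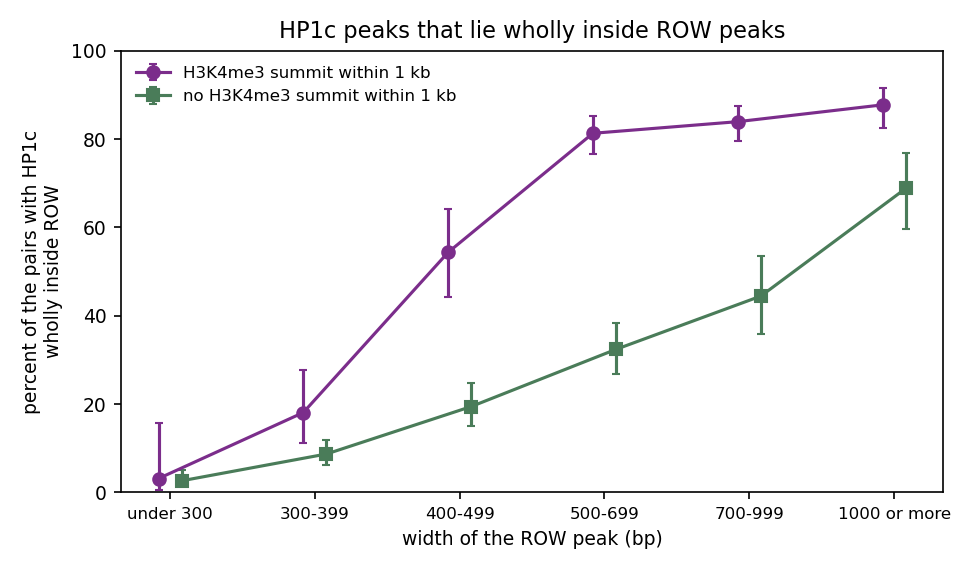
Percent of ROW-HP1c pairs in which the HP1c peak lies wholly inside the ROW peak, by width of the ROW peak, for pairs with an H3K4me3 summit within 1 kb of the ROW centre and for the others. Bars are 95% Wilson intervals. From 400 bp upward the pairs near a summit stand higher, for example 81.3% against 32.4% from 500 to below 700 bp.

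WOC peaks followed ROW in this respect and not HP1c. At the 1012 sites of all 3 proteins near a summit the median widths were 714 bp for ROW, 620 bp for WOC and 392.5 bp for HP1c, and the order ROW over WOC over HP1c held at 71.0% of single sites. At the 1172 sites away from summits the medians were 434, 466.5 and 483.5 bp. The same order held at 21.3% of those and the opposite one at 27.0%.

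**Figure D5:**
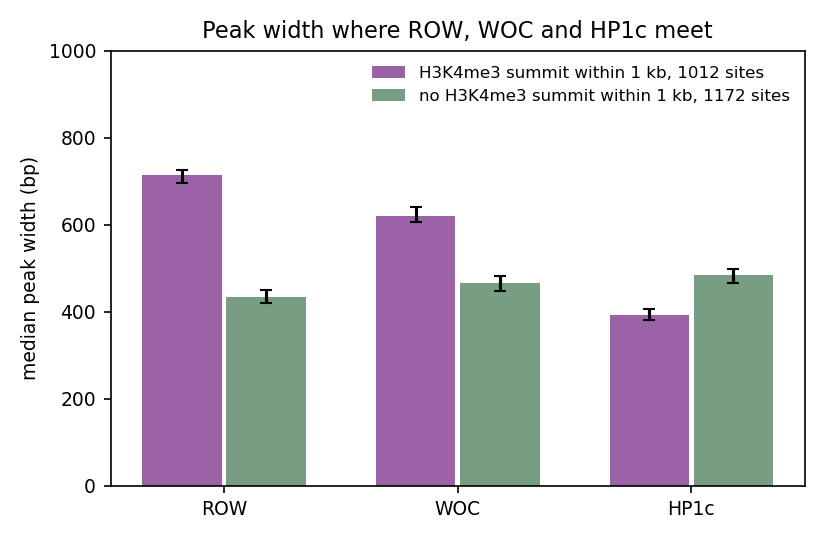
Median width of the ROW, WOC and HP1c peaks at sites where all 3 overlap, for 1012 sites with an H3K4me3 summit within 1 kb of the ROW centre and 1172 without. Error bars are 95% exact binomial intervals of the median. ROW and WOC are wider near a summit (714 and 620 bp against 434 and 466.5 bp), and HP1c is narrower (392.5 against 483.5 bp).

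Whether HP1c leaned away from the mark could not be settled. With the summit nearest to the ROW centre, HP1c stood 18.8 bp farther from it than ROW in the median (12.5 to 24.5). The summit nearest to the HP1c centre gave -1 bp (-6.5 to 3.5), and that nearest to the middle of both centres 8 bp (1 to 14), choices added after seeing the data. The size of the difference thus moved with the centre from which the summit was chosen, and the interval from the HP1c centre spans 0.

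HP1b, the other HP1 protein of the study, was more frequent at ROW peaks with HP1c than at those without. It overlapped 27.8% of all ROW peaks and 44.3% of all HP1c peaks. Of ROW peaks with HP1c 55.4% had HP1b (53.4 to 57.4), and of ROW peaks without HP1c 4.74% (4.03 to 5.58). HP1c peaks without ROW had it at 30.1% (28.0 to 32.3), with 55.2% (50.8 to 59.6) where WOC was present and 20.8% (18.7 to 23.1) where it was not. HP1c peaks with both ROW and WOC had HP1b at 57.8% (55.7 to 59.9), so with WOC present the intervals with and without ROW overlapped.

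Unshared peaks were seldom near misses. ROW peaks without HP1c stood a median of 9170 bp from the nearest HP1c peak (8581 to 9768), and 18 of 2889 had a gap of at most 200 bp. HP1c peaks without ROW stood a median of 7728 bp away (7106 to 8286), and 17 of 1807 lay within 200 bp. Within 1000 bp were 6.54% and 9.02%. The gaps were alike with and without WOC: ROW peaks without HP1c had medians of 8869 bp with WOC and 9541.5 bp without, and HP1c peaks without ROW 7728 and 7747.5 bp. Just inside the rule, the shortest overlap was 4 bp, between ROW at 7255234 to 7255682 and HP1c at 7254914 to 7255237 on 2R. The next were 12 bp on 3R and 19 bp on chromosome 4. Just outside it, ROW peaks on 3R at 22361631 to 22361988, on X at 12579153 to 12579433 and on 3R at 11373499 to 11373740 missed an HP1c peak by 2, 4 and 10 bp.

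The widest members of each unshared set are given as single sites and are not typical of it. ROW with WOC and without HP1c reached 2034 bp on X at 11609059 to 11611092, in an H3K4me3 peak of fold enrichment 3.44 and 19976 bp from the nearest HP1c peak. The next, on 2L at 10230590 to 10232601 (2012 bp), met an H3K4me3 peak of fold 6.21, and the one on 2R at 17592482 to 17594323 (1842 bp) met none. ROW with neither partner was widest on 3R at 2953649 to 2954927 (1279 bp), 2L at 8541982 to 8543166 (1185 bp) and 3L at 23199014 to 23200045 (1032 bp). All met H3K4me3, where 34.7% of that set did, and a wide peak meets the mark more easily. None met HP1b, which only 3.36% of that set did. HP1c with WOC and without ROW had its 3 widest peaks on 3R, at 20241644 to 20243134 (1491 bp), 13245036 to 13246356 (1321 bp) and 22295545 to 22296792 (1248 bp), of which the last met H3K4me3 at fold 1.86, where 3.08% of that set did. With or without WOC, 350 of the 1807 HP1c peaks without ROW lay on 3R. HP1c with neither partner was widest on 2R at 14033152 to 14034478 (1327 bp), 3L at 24317630 to 24318705 (1076 bp) and 2L at 16143888 to 16144923 (1036 bp). None of these met the mark, which only 3.64% of that set did. Among shared sites lacking WOC the widest ROW peak, at 319480 to 320921 on chromosome 4 (1442 bp), covered HP1c peaks of 287 and 326 bp, and the next lay on 3R at 12085909 to 12087097 (1189 bp).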

How the data were processed

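Peaks came from chromatin immunoprecipitation and sequencing of fly heads. Per the submitters' processing notes the build was dm3 and the tools included Bowtie2, SAMtools, MACS2 and deepTools. No source used here gives a version, a threshold or the way in which libraries of 1 antibody were combined. The deposited ROW, HP1c, WOC and HP1b lists hold the position of each peak and no value. For H3K4me3 the deposited values also include a summit and a fold enrichment (a ratio) by the authors. A shallow library or a strict caller gives fewer and narrower peaks, which moves both shares and widths.

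Intervals were compared at 1 bp or more of overlap. The centre is the middle of a peak, and H3K4me3 distance is from centre to summit. Shares carry Wilson intervals and medians exact order-statistic intervals. Overlap and offset code was tested on simulated lists. Regions named are the 3 widest of each class and the 3 on either side of the overlap rule, of which most are printed. The sets and the rule were chosen with earlier results of these data known. Alternatives were the definition of overlap, WOC and H3K4me3, the arms used, wide peaks only and one-to-one pairs. With 1 list per antibody no test was made. Peak sequences and genes were not analysed here, as no genome of the build was used. Statistics used SciPy 1.17.1 and NumPy 2.4.6 under Python 3.11.15, with tables in pandas 2.3.3 and plots in matplotlib 3.10.9.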

Additional observations from a re-analysis of the deposited data

How the results depend on the processing

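No paired analysis was possible because the libraries of an antibody were merged into a single peak list, and leaving out a library was impossible for the same reason. Of 96 alternatives over 21 results, 56 stayed within the interval of the reported value. All 21 did so when the overlap had to span 0.5 of the shorter peak. With ROW and HP1c centres within 200 bp, 40.4% of ROW and 50.3% of HP1c peaks were shared. ROW peaks without HP1c then had WOC at 65.1% and a median width of 420 bp, HP1c peaks without ROW had WOC at 35.9%, H3K4me3 at 7.58% and a width of 335 bp, and the offset with WOC was 46.5 bp, lower by construction. On the main arms alone 41.0% of ROW peaks were shared, of which 42.2% had H3K4me3 and 8.87% lay on X. HP1c peaks with ROW were 403 bp wide there, and 7.37% of HP1c peaks without ROW lay on X. Among peaks at least as wide as the median of their list, 36.6% of ROW and 46.8% of HP1c peaks were shared with a peak that passed the same cut. Peaks whose only partner was narrower counted as unshared there. WOC then lay at 97.5% of ROW peaks with HP1c, 92.7% without, 97.5% of HP1c peaks with ROW and 60.5% without. Widths were 729.5, 599, 575 and 472 bp in that order, by construction. H3K4me3 lay at 48.6% of ROW peaks with HP1c and 73.3% without, 15.6% of ROW peaks without HP1c were on X, 20.7% of HP1c peaks without ROW were on Het contigs, and the offset with WOC was 62 bp. With WOC called by its centre within 200 bp, its shares were 82.3% and 61.1% of ROW peaks with and without HP1c and 79.5% and 24.9% of HP1c peaks with and without ROW, and offsets were 51.5 bp with WOC and 99.5 bp without. One-to-one pairs with WOC had an offset of 51.5 bp. With a summit within 1 kb as the criterion, H3K4me3 lay at 43.0%, 65.0% and 6.86% of ROW peaks with HP1c, ROW peaks without it and HP1c peaks without ROW. The offset away from the summit was -1 bp and 8 bp when the summit was chosen from the HP1c centre or the middle, alternatives added after seeing the data. Depth limits what an absent peak can show.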
